A study of Mus musculus with 229 samples.

Results

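Insulin-like growth factors and their partners were followed as 9 genes: the ligands Igf1 and Igf2, the receptors Igf1r and Igf2r, and the binding proteins Igfbp2, Igfbp3, Igfbp4, Igfbp5 and Igfbp7. They were chosen by name, and all 9 had a row in each of the 6 expression tables, which held 20465 to 46523 gene rows. Cells came from mouse cortex and from mouse glioblastoma of the cortex, and the labels name no wild type or untreated control, no tumour-inducing agent and no mouse age for the tumours. Of the cortex libraries, the one of the PDGFRa-GFP strain (genotype given as PDGFRa normal) was taken at postnatal days P1-3, and that of the hGFAP-GFP strain (hGFAP normal) at P5-6. Live cells that fluoresced green were sorted from both. Such a reporter marks cells in which the named promoter is or was active, so these are selected cells and not whole cortex. The tumours, labelled dpi25 and dpi35 (the labels do not expand dpi), were digested with collagenase and freed of red blood cells, with no sort described. The dpi35 tumour was run on the 10x platform and the other 3 libraries by Drop-seq; both methods count unique molecular identifiers (UMIs) at the 3′ end of transcripts. Full-length RNA of single cells was captured on the C1 chip: for PDGFRa-GFP 60 cells of P3 and 53 of P6, for hGFAP-GFP 49 of P3 and 61 of P4/P6. The PDGFRa-GFP C1 cells are so named by their titles, while their strain field gives the hGFAP line. Open chromatin was mapped by ATAC-seq in sorted PDGFRa-GFP cells of E14.5 and P5, deposited as 1 pooled peak list. Each droplet group is 1 library and the labels name no animals, so every set of cells counts as 1 sample and no test between groups was possible.

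The insulin-like growth factors are secreted peptides that bind Igf1r, a receptor tyrosine kinase which promotes growth and survival. Igf2r, the cation-independent mannose 6-phosphate receptor, takes up Igf2 and delivers it to lysosomes without such signalling. Binding proteins of the Igfbp family hold the ligands outside the cell and set how much reaches the receptor; Igfbp7 binds them only weakly and is known as a protein of blood vessel walls. In the brain, Igf1 is made by microglia among others, and Igf2 by the choroid plexus and the meninges.

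Sequence just upstream of the transcription start is shown for 6 genes, because open chromatin was measured there. Igf1r had the strongest start peak of the 9. Igf2r is the other receptor. Igfbp7 differed most between libraries. Igfbp2 and Igfbp5 are neighbours on chromosome 1, on opposite strands with 5590 bases between the gene models, and differed in pattern. Igf2 had no peak at any of its 4 listed starts, and the start nearest to a peak is shown. Each sequence is the 250 bases before a start, 5′ to 3′ on the gene's strand, from RefSeq (assembly GRCm38.p6, the mm10 build). Capitals mark matches on either strand to the GC box core GGGCGG, the TATA box core TATAAA, the hypoxia element core ACGTG and the E-box CACGTG; each E-box match also holds the hypoxia core.
Igf1r, chr7:67952007-67952256, plus strand: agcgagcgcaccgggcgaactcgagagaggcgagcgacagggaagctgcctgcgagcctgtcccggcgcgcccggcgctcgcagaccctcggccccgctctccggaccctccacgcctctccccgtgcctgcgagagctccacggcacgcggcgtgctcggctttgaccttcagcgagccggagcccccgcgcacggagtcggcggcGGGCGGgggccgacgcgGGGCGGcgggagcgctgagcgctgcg
Igf2r, chr17:12769707-12769956, minus strand: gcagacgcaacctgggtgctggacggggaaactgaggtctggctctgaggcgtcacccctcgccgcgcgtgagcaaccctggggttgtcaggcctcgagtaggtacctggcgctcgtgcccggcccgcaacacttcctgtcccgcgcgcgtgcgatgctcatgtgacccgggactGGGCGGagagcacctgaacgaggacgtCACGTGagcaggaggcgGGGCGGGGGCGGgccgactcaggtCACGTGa
Igfbp7, chr5:77408046-77408295, minus strand: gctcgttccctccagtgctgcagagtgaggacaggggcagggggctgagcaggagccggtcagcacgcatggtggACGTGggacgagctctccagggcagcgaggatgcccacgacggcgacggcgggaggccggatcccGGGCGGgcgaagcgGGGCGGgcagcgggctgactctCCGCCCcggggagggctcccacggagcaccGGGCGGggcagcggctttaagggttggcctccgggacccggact
Igfbp2, chr1:72824230-72824479, plus strand: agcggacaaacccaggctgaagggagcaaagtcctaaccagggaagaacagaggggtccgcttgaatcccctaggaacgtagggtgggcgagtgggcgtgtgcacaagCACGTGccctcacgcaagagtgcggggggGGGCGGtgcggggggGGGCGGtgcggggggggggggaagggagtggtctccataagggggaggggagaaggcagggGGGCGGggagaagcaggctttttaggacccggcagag
Igfbp5, chr1:72874866-72875115, minus strand: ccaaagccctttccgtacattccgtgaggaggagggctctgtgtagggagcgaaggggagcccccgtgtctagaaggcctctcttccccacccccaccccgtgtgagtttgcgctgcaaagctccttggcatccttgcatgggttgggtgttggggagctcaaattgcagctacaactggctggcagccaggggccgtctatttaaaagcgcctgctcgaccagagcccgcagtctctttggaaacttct
Igf2, chr7:142658805-142659054, minus strand: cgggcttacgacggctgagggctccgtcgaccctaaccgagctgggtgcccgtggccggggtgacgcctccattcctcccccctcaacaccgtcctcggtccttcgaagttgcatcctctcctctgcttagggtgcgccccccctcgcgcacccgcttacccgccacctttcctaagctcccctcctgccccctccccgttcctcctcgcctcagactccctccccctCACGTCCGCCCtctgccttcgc

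GGGCGG occurred 2 times upstream of Igf1r, 3 times upstream of Igf2r, 4 times upstream of Igfbp7, 3 times upstream of Igfbp2 and 1 time at the Igf2 start shown. It occurred in 32.7% of the 32851 such windows over the annotation. CACGTG occurred 2 times upstream of Igf2r and 1 time upstream of Igfbp2, against 6.02% of all windows holding it. ACGTG outside an E-box occurred 1 time upstream of Igfbp7 and 1 time at the Igf2 start shown; 16.6% of all windows hold ACGTG. The Igfbp5 window held none of the 4 motifs. TATAAA, present in 12.4% of windows, was found for Igfbp4 alone among the 9 genes, 28 bases before its start. These matches describe the letters only.

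Open chromatin lay at a start of 8 of the 9 genes, Igf2 being the exception, against 44.5% of the 27025 genes with a listed start. A start counted when a peak overlapped the window from 250 bases before to 50 after it. Igf1r (chr7:67952257-68233668, plus strand) had the strongest start peak, with an enrichment given by the authors of 11.6-fold. That lies at the 79.9th percentile of genes with a start peak, whose median was 7.58-fold. The Igf1r region was 2693 bases long and held 7 summits, and 23 peaks lay within the gene, among them one of 13.1-fold inside it. The other 7 genes had start peaks between 4.04-fold (Igf1) and 6.07-fold (Igfbp5 and Igfbp7), all below that median. For Igf2 (chr7:142650768-142666816, minus strand), the summit nearest to any start lay 577 bases upstream of the one at 142658804, with 4.04-fold enrichment. Upstream windows with a peak had a median GC content of 61.6% against 47.2% for those without, and the Igf1r window had 77.6% GC and 42 CpG. Stages cannot be told apart in the pooled list. The plot of summits by distance shows this layout.

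**Figure D1:**
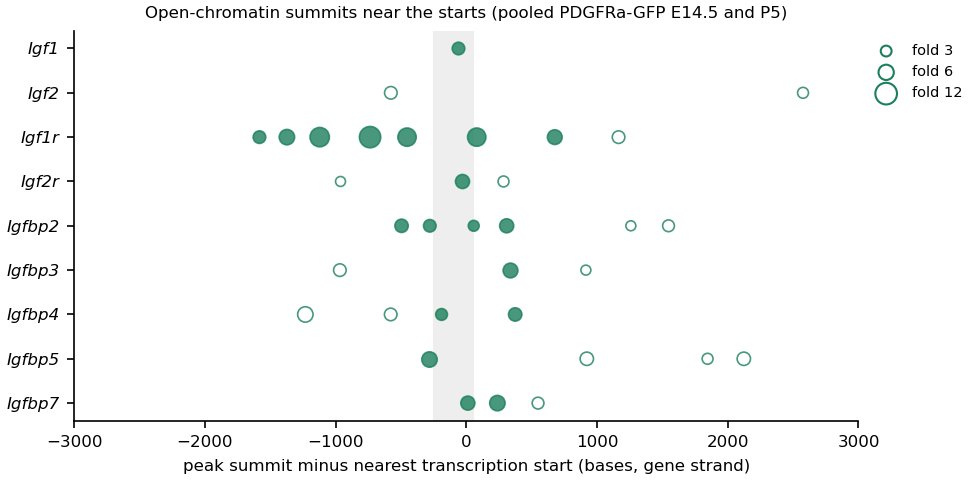
Peak summits within 3 kb of the members' starts in the pooled PDGFRa-GFP peak list; the x axis is the distance from the summit to the nearest start in bases, circle area follows the authors' fold enrichment, filled circles belong to a peak that overlaps the start window (grey) and open circles to other peaks. Igf1r has 7 filled summits, up to 11.6-fold, and Igf2 has none.

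Depth differed between libraries: 3184 cells with 8166699 UMIs for PDGFRa-GFP, 815 with 4196024 for hGFAP-GFP, 4955 with 11544233 for dpi25 and 6054 with 51194749 for dpi35. The labels give 2000 cells for hGFAP-GFP and 6796 for dpi25. No cell barcode was shared between libraries. Levels are in CPM, the gene's UMIs per 1e+06 UMIs of a library or group of cells, and intervals, for levels and ratios alike, are exact at 95% and hold only the error of counting molecules. Cells were grouped into clusters without using the 9 genes, and a cluster is called "like" a cell type where marker genes led it; others go by their leading genes. Called tumour clusters are 6 of dpi25 (led by replication, histone, mitosis (2 clusters), Cdkn2b and hypoxia genes; 4329 cells) and 4 of dpi35 (OPC-like, cycling-like (2 clusters) and hypoxia-led; 1938 cells). Hypoxia-led means with Bnip3 and Vegfa, targets of the hypoxia response, among the leading genes. Whether cells of these clusters were malignant was not tested.

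Igf1 was higher in both tumour libraries than in the cortex libraries, and Igf2 lower. Igf1 stood at 2.94 CPM (1.88 to 4.37) in PDGFRa-GFP cortex, 2.14 (0.981 to 4.07) in hGFAP-GFP cortex, 29.5 (26.4 to 32.8) at dpi25 and 111 (108 to 114) at dpi35. Both cortex intervals overlapped, and both tumours were above them. Igf2 stood at 53.4 CPM (48.5 to 58.6) in PDGFRa-GFP and 17.9 (14.1 to 22.4) in hGFAP-GFP cortex, but at 0.693 (0.299 to 1.37) and 1.29 (0.997 to 1.64) in the dpi25 and dpi35 tumours, whose intervals overlapped. The dpi35 values come from another platform and are given beside the others without a ratio.

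The receptors spanned a narrower range. Igf1r was at 35.9 CPM (31.9 to 40.2) in PDGFRa-GFP, 20.5 (16.4 to 25.3) in hGFAP-GFP, 14.4 (12.3 to 16.7) at dpi25 and 36.8 (35.2 to 38.5) at dpi35. The PDGFRa-GFP and dpi35 intervals overlapped. The dpi25 level was 0.702-fold (0.538 to 0.921) that of hGFAP-GFP. Igf2r ran from 7.71 CPM (5.93 to 9.87) in PDGFRa-GFP through 8.01 (7.25 to 8.82) at dpi35 and 9.77 (7.01 to 13.3) in hGFAP-GFP to 14.4 (12.3 to 16.7) at dpi25, and neighbours in that order had overlapping intervals; the ratio of the last pair was 1.47-fold (1.04 to 2.13).

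Among the binding proteins, Igfbp3 and Igfbp7 were the tumour-high ones. Igfbp3 was at 26.1 CPM (22.7 to 29.8) in PDGFRa-GFP, 6.43 (4.24 to 9.36) in hGFAP-GFP, 565 (552 to 579) at dpi25 and 41.8 (40.0 to 43.6) at dpi35. Igfbp7 was at 1.84 (1.03 to 3.03), 2.86 (1.48 to 5.00), 297 (287 to 307) and 568 (562 to 575) in the same order, so that the cortex libraries overlapped and both tumours stood far above. Igfbp5 went the other way, at 46.3 (41.7 to 51.2) and 155 (143 to 168) in the cortex against 14.4 (12.3 to 16.7) and 26.7 (25.3 to 28.2) in the tumours. Igfbp2 was nearly level over the Drop-seq libraries, at 231 (220 to 241), 250 (235 to 266) and 258 (248.8 to 267), and was at 108 (105 to 111) at dpi35. Igfbp4 lay between 15.97 (12.4 to 20.3) in hGFAP-GFP and 44.03 (42.2 to 45.9) at dpi35.

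**Figure D2:**
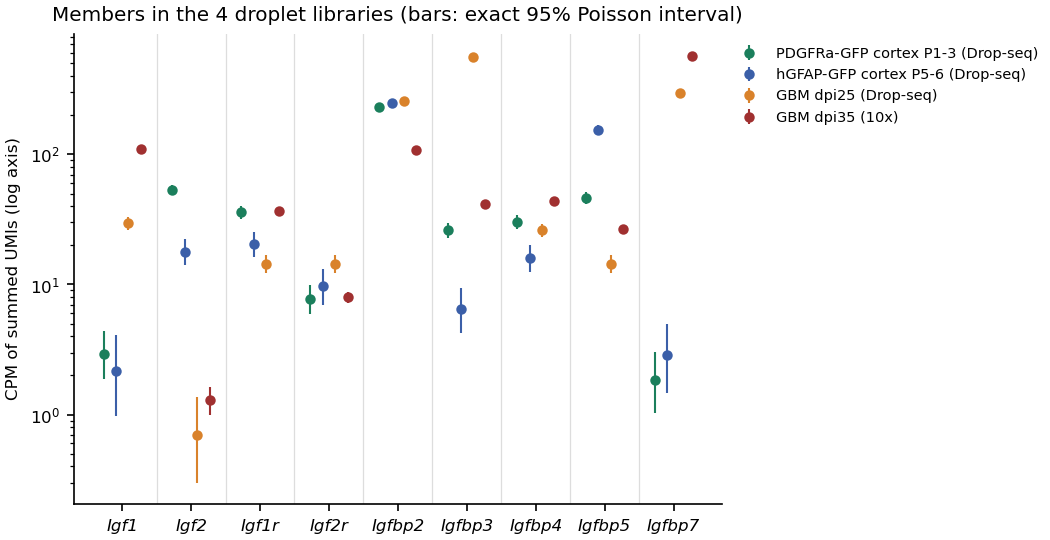
CPM of the 9 genes on a log axis in the 4 droplet libraries; points are library values and bars exact 95% Poisson intervals. Igf1, Igfbp3 and Igfbp7 are higher at dpi25 than in either cortex library and Igf2 and Igfbp5 lower.

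Between the cortex libraries, 2 of the 9 genes were past 2-fold higher in PDGFRa-GFP and 1 lower, where 4.85% of 13555 genes with at least 20 UMIs were past it higher and 12.7% lower. Igfbp3 was 4.05-fold higher (2.71 to 6.30) and Igf2 2.99-fold higher (2.33 to 3.87), while Igfbp5 was 3.35-fold lower, a log2 ratio of -1.75 (-1.93 to -1.56). Without 1 hGFAP-GFP cell that held 64 of the 75 Igf2 UMIs there, Igf2 was 20.3-fold higher (11.2 to 40.97). Median log2 ratio over the 9 genes was 0.45 and over all genes 0.04. Scaling by TMM raised the median of all genes to 0.18 and moved the split of higher and lower genes from 657 and 1717 to 923 and 1453; Igf2, Igfbp3 and Igfbp5 kept their direction there, at 1.72, 2.16 and -1.60, and Igfbp4 passed 2-fold at 1.07.

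At dpi25 against PDGFRa-GFP cortex, 3 of 9 genes were past 2-fold higher and 3 lower, with 16.2% and 16.6% of 14162 genes past it in those directions. Igfbp3 was 21.7-fold higher (18.9 to 25.0) and Igf1 10.0-fold higher (6.62 to 15.9). Igfbp7 had the largest ratio of the 9, at 161-fold (97.8 to 289). Igf2 was 77.0-fold lower, a log2 ratio of -6.27 (-7.49 to -5.28), Igfbp5 3.22-fold lower and Igf1r 2.50-fold lower. Median log2 ratio was 0.16 over the 9 and -0.01 over all genes.

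At dpi25 against hGFAP-GFP cortex, a comparison that shares the tumour library with the previous one, 3 of 9 genes were higher and 2 lower, against 17.2% and 20.5% of 14187 genes. Igfbp7 was 104-fold higher (59.3 to 201), Igfbp3 87.9-fold (60.3 to 133) and Igf1 13.7-fold (7.15 to 30.3). Igf2 was 25.8-fold lower and Igfbp5 10.8-fold lower. Without the cell named above, hGFAP-GFP had 2.63 CPM of Igf2, against 0.693 at dpi25. Igfbp2 gave 1.03-fold (0.961 to 1.11). The median log2 ratio was 0.56 over the 9 and 0.01 over all genes; TMM scaling moved the latter to 0.26 and the split of 2441 higher and 2908 lower genes to 3362 and 2359, with no sign changed among the 5 genes past 2-fold.

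Much of this moved with the makeup of the libraries. When neuronal, immune, vessel, stromal, ependymal and choroid clusters were left out, 2113, 599 and 4484 cells remained in PDGFRa-GFP, hGFAP-GFP and dpi25. Igfbp3 at dpi25 was then still higher, with log2 ratios of 4.08 over PDGFRa-GFP and 6.30 over hGFAP-GFP. Igfbp7 stayed higher at 3.601 and 2.71, against 7.34 and 6.70 with all cells. Igf1 was then at 0.78 and -0.34, neither past 2-fold and the second with its sign turned. Igf2 between the cortex libraries turned from 1.58 to -2.09, where 1 hGFAP-GFP cell described with Igf2 weighed most. In the same comparison Igfbp2 went from -0.12 to -1.31. Igfbp2 at dpi25 over PDGFRa-GFP went from 0.16 to 1.35. Igf1r at dpi25 over PDGFRa-GFP came to -0.97, just short of 2-fold.

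**Figure D3:**
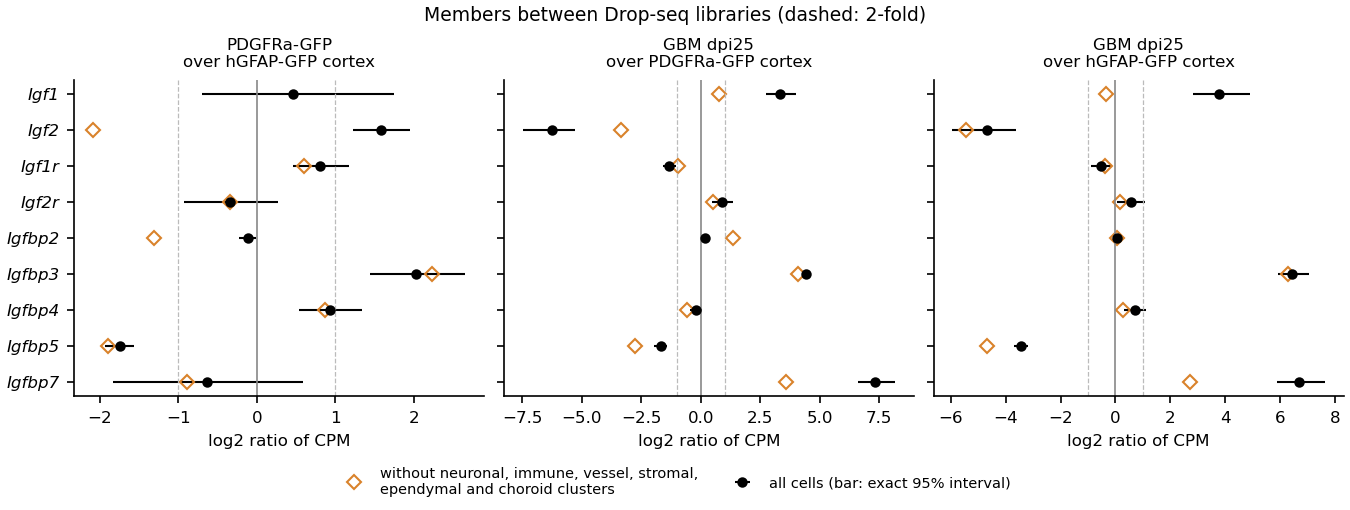
Log2 ratios of CPM for the 9 genes in the 3 comparisons between Drop-seq libraries; black points with exact 95% intervals use all cells, open diamonds leave out neuronal, immune, vessel, stromal, ependymal and choroid clusters, and dashed lines mark 2-fold. Igfbp3 stays on its side of 0 in each comparison. Igf1 crosses 0 at dpi25 over hGFAP-GFP and Igf2 in the cortex comparison, where Igf1 had under 20 UMIs left and has no diamond.

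Igf1 lay in myeloid cells. At dpi25 the microglia-like cluster, 6.92% of cells, held 321 of 340 Igf1 UMIs (94.4%) at 374 CPM (335 to 418), against 1.35 CPM in the tumour clusters apart from the hypoxia-led one, a 278-fold difference (157 to 544). The sum of the microglia and macrophage markers was 31714 CPM in that cluster and at most 288 in the others. At dpi35, the 8 clusters with a marker sum of at least 20000 CPM made up 44.8% of cells and held 5445 of 5668 Igf1 UMIs (96.1%). In PDGFRa-GFP cortex a microglia-like cluster of 6 cells held 9 of the 24 Igf1 UMIs, at 260 CPM (119 to 493).

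Myeloid cells of the dpi35 tumour were unequal in Igf1. The cluster led by Gpnmb, Hmox1 and Spp1 (Hmox1 degrades haem) had 578 CPM (559 to 598), with Igf1 UMIs in 390 of 532 cells. The macrophage-like cluster led by Ms4a7 and Pf4 had 277 (260 to 296). The microglia-like cluster led by P2ry12 and Siglech, genes of resting microglia, had 56.2 (49.2 to 63.8). Igf1 was thus 10.3-fold higher (9.01 to 11.8) in the first than in the third and 2.08-fold higher (1.94 to 2.25) than in the second. A small macrophage-like cluster of 39 cells led by H2-Aa and Cd74 had no Igf1 UMI. The other myeloid clusters lay between 41.03 CPM (led by Chil3 and Plac8, monocyte genes) and 124 CPM (led by Cxcl10 and Rsad2, interferon-induced genes). Interferon-led and cycling myeloid clusters, at 124 and 111 CPM, were close to each other.

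Igf2 lay in a few stromal and choroid cells of the cortex libraries. In PDGFRa-GFP, 12 fibroblast-like cells, led by Ptgds, Apod and Col1a2, held 181 of the 436 Igf2 UMIs (41.5%) at 4692 CPM (4033 to 5428), and 11 of the 12 cells had at least 1. The choroid plexus-like cluster of 53 cells followed with 213 UMIs at 813 CPM (707 to 930). Clusters of the oligodendrocyte lineage in that library had 4.04 to 6.96 CPM. In hGFAP-GFP, 64 of 75 Igf2 UMIs (85.3%) came from 1 cell. That cell also had 36 UMIs of Col1a2 and 45 of Dcn, genes of fibroblasts, and none of Aqp4, a gene of astrocytes. It sat in the second of 2 astrocyte-like clusters, 46 cells led by Sparc, Naaa and Entpd2 with Col1a2 and Rgs5 also among the 10 leading genes. Without it the hGFAP-GFP library stood at 2.63 CPM of Igf2 in place of 17.9, as in the comparisons above.

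Igf1r was spread over most clusters, with its highest levels in neuron-like cells of the cortex and endothelial-like cells of the tumours, at dpi25 with overlapping intervals. In PDGFRa-GFP, the 963 interneuron-like cells had 69.7 CPM (57.2 to 84.2) against 26.9 (19.3 to 36.7) in cells like oligodendrocyte precursors (OPC-like), 2.59-fold higher (1.79 to 3.82). In hGFAP-GFP, interneuron-like cells had 36.8 (19.6 to 62.9) against 8.28 (3.04 to 18.03) in the first astrocyte-like cluster, 4.44-fold higher (1.58 to 14.3). The second astrocyte-like cluster of that library had 26.2 (8.496 to 61.1), so the contrast did not hold for both astrocyte-like clusters. Excitatory precursor-like cells had 26.3 (12.6 to 48.4) and cycling-like cells 23.5 (10.2 to 46.3) there, also with intervals that overlapped that of interneuron-like cells. No Igf1r UMI was found in the 41 astrocyte-like cells of PDGFRa-GFP, where a count of 0 allows up to 25.8 CPM (3 UMIs). At dpi25, endothelial-like cells had 55.8 CPM (31.3 to 92.1), from 15 UMIs. That interval overlapped those of the hypoxia-led cluster, at 37.5 (26.5 to 51.5), and of 14 cells led by Nupr1, at 55.5 (11.4 to 162). At dpi35, the endothelial-like cluster had 153 CPM (141 to 166) and the ependymal-like 113 (90.8 to 139). OPC-like tumour cells of dpi35 had 38.2 (33.4 to 43.4) and mural-like cells 38.8. Its 8 myeloid clusters lay between 8.20 and 17.8 CPM, 13.2 (11.8 to 14.7) together.

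Igf2r was highest in stroma clusters of both tumours. The endothelial-like and fibroblast-like clusters of dpi25 together had 73.0 CPM (48.5 to 106) and the mural-like cluster of dpi35 111 (85.5 to 142). Endothelial-like cells of dpi35 had less, 18.3 (14.3 to 22.98), below the ependymal-like cluster at 35.1 (23.3 to 50.8). The dpi25 pair and the dpi35 mural-like value were 7.32-fold (4.60 to 11.3) above the tumour clusters of dpi25 apart from the hypoxia-led one and 15.1-fold (10.1 to 22.7) above OPC-like cells of dpi35. The microglia-like cluster of dpi35 gave 1 UMI (0.241 CPM), against 7.37 in OPC-like cells, but the microglia-like cluster of dpi25 gave 23.3 CPM (14.3 to 36.03).

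**Figure D4:**
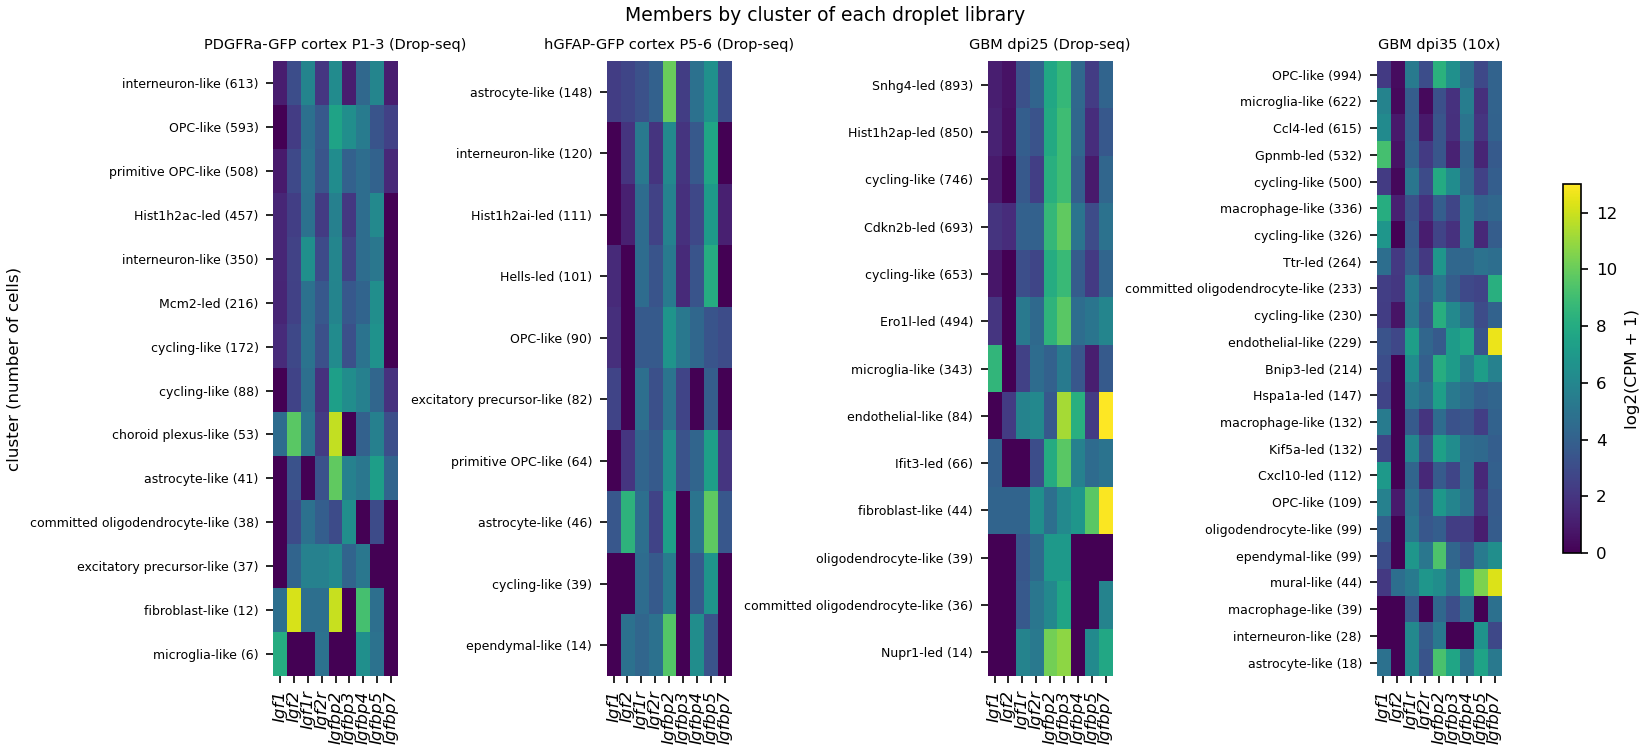
Log2(CPM + 1) of the 9 genes (columns) in every cluster (rows, with the number of cells) of the 4 droplet libraries. Bright cells mark Igf1 in myeloid rows, Igf2 and Igfbp2 in fibroblast-like and choroid plexus-like rows of PDGFRa-GFP, Igfbp3 in all tumour rows of dpi25, and Igfbp7 in endothelial-like, fibroblast-like and mural-like rows of the tumours.

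Igfbp3 was spread over the tumour clusters themselves at dpi25. It ran from 409 to 899 CPM over 6 tumour clusters with 4329 cells, with the highest value in the cluster led by Cdkn2b, Ccnd2 and Rasl11a. That cluster was 1.93-fold (1.81 to 2.06) above the tumour clusters led by replication, histone and mitosis genes. Endothelial-like cells had still more, at 2450 CPM (2266 to 2644), with a UMI in 73 of 84 cells. So did 14 cells led by Nupr1, Tm4sf1 and Aqp4, at 1794 (1455 to 2189). Microglia-like cells had 39.7. Endothelial markers in the 6 tumour clusters stood at 0.517% to 0.964% of their sum in endothelial-like cells, a share that would carry 12.7 to 23.6 CPM of Igfbp3. At dpi35, the 4 tumour clusters of 1938 cells ran from 69.2 to 141 CPM. Endothelial-like cells of dpi35 had 138 (127 to 150) and all its myeloid cells together 3.05 (2.40 to 3.82). The 18 astrocyte-like cells there had 196 (121 to 300), from 21 UMIs in 4 cells.

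In the cortex, Igfbp3 differed between stages of the oligodendrocyte lineage. PDGFRa-GFP OPC-like cells, led by Cspg4 and Serpine2, had 84.2 CPM (70.1 to 100) against 15.3 (8.91 to 24.5) in primitive OPC-like cells, led by Fos, Ppp1r14b and Junb, a 5.51-fold difference (3.30 to 9.75). Committed oligodendrocyte-like cells had 83.5 (43.1 to 146). In hGFAP-GFP the same pair had 35.7 (19.99 to 58.9) and 9.01 (1.86 to 26.3), 3.97-fold apart (1.12 to 21.4). At resolution settings 0.5 and 2 of the clustering, the committed oligodendrocyte-like class rather than the OPC-like was highest in PDGFRa-GFP.

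Igfbp7 lay in vessels and stroma of the tumours. At dpi25 the endothelial-like and fibroblast-like clusters, 2.58% of cells, held 3173 of 3424 UMIs (92.7%), at 8529 and 7688 CPM, and every one of their 128 cells had a UMI. At dpi35 the endothelial-like and mural-like clusters, 4.51% of cells, held 27675 of 29090 UMIs (95.1%), at 6218 and 5020 CPM. All other cells had 22.5 and 30.3 CPM in the 2 tumours. Endothelial markers in the dpi25 tumour clusters would carry 44.1 to 82.2 CPM of Igfbp7 at their share, and Igfbp7 there was 10.9 to 60.2 CPM, in each of the 6 below its carried level. The part of free RNA in it was not tested.

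Outside the vessel and stroma clusters, the cluster furthest above its carried level was 1 of oligodendrocyte type. Committed oligodendrocyte-like cells of dpi35, led by Rnd2, Sirt2 and Tubb4a, had 296 CPM of Igfbp7 (273 to 320), with 614 UMIs in 86 of 233 cells and at most 118 in a cell. This was 17.7-fold (14.3 to 22.04) above OPC-like and 23.5-fold (13.4 to 45.7) above oligodendrocyte-like cells of that tumour. Endothelial markers in the cluster would carry 50.5 CPM at their share. The cortex clusters of this stage had no Igfbp7 UMI in PDGFRa-GFP (38 cells, which allows up to 20.9 CPM), and the one of dpi25, with 5 UMIs in 36 cells, had 55.9 CPM.

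Igfbp2 was highest in astrocyte-like, ependymal-like, choroid and stromal cells in the cortex. Astrocyte-like cells had 920 CPM (754 to 1112) in PDGFRa-GFP and 1035 (963 to 1112) in the first astrocyte-like cluster of hGFAP-GFP, 4.95-fold (3.92 to 6.21) and 9.88-fold (7.29 to 13.7) above OPC-like cells of the same libraries. Choroid plexus-like cells of PDGFRa-GFP had 3537 (3313 to 3772) and fibroblast-like cells 3811 (3220 to 4479). The 14 ependymal-like cells of hGFAP-GFP had 733 (581 to 913). Committed oligodendrocyte-like cells of PDGFRa-GFP gave 1 UMI, or 6.96 CPM. The second astrocyte-like cluster of hGFAP-GFP had 162 (110 to 230), 6.38-fold (4.46 to 9.46) below the first. In the tumours Igfbp2 was spread over the tumour clusters, at 214 to 409 CPM over the 6 clusters of dpi25 and 243 to 316 over the 4 of dpi35. Above these were 14 dpi25 cells led by Nupr1, Tm4sf1 and Aqp4, at 1221 (944 to 1553), and at dpi35 the ependymal-like cluster at 666 and 18 astrocyte-like cells at 607. Myeloid cells of dpi35 had 10.0 (8.83 to 11.4).

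Igfbp5 was higher in dividing clusters than in OPC-like cells of the cortex. The clusters led by histone, replication and mitosis genes had 76.4 CPM (66.8 to 87.0) in PDGFRa-GFP and 169 (150 to 189) in hGFAP-GFP. OPC-like cells had 9.43 (5.16 to 15.8) and 9.52 (2.60 to 24.4), which was 8.10-fold (4.73 to 15.05) and 17.7-fold (6.84 to 65.4) less. A second cycling-like cluster of PDGFRa-GFP, with the OPC gene Cntn1 among its leading genes, had 18.3 CPM (7.35 to 37.7), 5.27-fold (2.37 to 13.8) below the first. Primitive OPC-like cells had 16.2 (9.60 to 25.6) in PDGFRa-GFP and 159 (119 to 208) in hGFAP-GFP. It was not limited to dividing cells: hGFAP-GFP interneuron-like cells had 201 (157 to 253) and PDGFRa-GFP astrocyte-like cells 155 (91.8 to 245). The highest Igfbp5 level of the cortex, 879 CPM (751 to 1023), was in the second astrocyte-like cluster of hGFAP-GFP, in 34 of 46 cells. It was 803 without the cell that held most of the Igf2. At resolution 0.5 of the clustering, the ependymal-like class rather than the astrocyte-like was highest in Igfbp5 in hGFAP-GFP.

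In the tumours Igfbp5 was highest in stroma clusters, and among the tumour clusters in those led by hypoxia genes. Fibroblast-like cells of dpi25 had 828 CPM and mural-like cells of dpi35 1404 (1308 to 1505), the latter 972 without the highest cell, which held 253 of the library's 1369 UMIs. The hypoxia-led clusters had 32.6 (22.4 to 45.7) at dpi25 and 149 (130 to 170) at dpi35. That was 10.0-fold (5.89 to 17.1) and 25.9-fold (19.7 to 34.3) above the other tumour clusters. At dpi35 the 219 UMIs came from 51 of 214 cells. Some clusters called neither stroma nor tumour had intervals that overlapped those of the hypoxia-led ones. At dpi35, 18 astrocyte-like cells had 187 CPM (114 to 288) and 28 interneuron-like cells 103 (59.8 to 164). At dpi25, 14 cells led by Nupr1, Tm4sf1 and Aqp4 had 74.0 (20.2 to 189), from 4 UMIs. The 66 cells led by Ifit3 there had 22.1 (4.55 to 64.5), from 3 UMIs.

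Hypoxia-led cells differed in other members too. Igf1r was 3.28-fold higher (2.20 to 4.80) there at dpi25 and 2.21-fold (1.79 to 2.71) at dpi35. Igfbp3 was 1.54-fold (1.43 to 1.65) and 1.69-fold (1.45 to 1.96) higher. Igf2r was 2.07-fold (1.22 to 3.37) and 1.89-fold (1.12 to 3.07) higher. Igfbp4 gave 1.23-fold (0.770 to 1.90) at dpi25 and 1.94-fold (1.47 to 2.53) at dpi35. Igfbp2 was 1.27-fold (1.14 to 1.42) higher at dpi25 and 0.976-fold (0.879 to 1.08) at dpi35. These ratios are to the other tumour clusters pooled. Of those at dpi25, the Cdkn2b-led cluster had no less than the hypoxia-led one of these binding proteins. It had 899 against 821 CPM of Igfbp3, 409 against 354 of Igfbp2 and 31.1 against 23.7 of Igfbp4, with overlapping intervals. Igfbp7 was 3.37-fold (2.47 to 4.56) and 3.26-fold (2.46 to 4.28) higher, at levels of 60.2 and 50.96 CPM, beside 72.2 and 51.8 CPM that would be carried at the share of endothelial markers there. The part of free RNA in this was not tested. Each of the 2 tumours gives 1 library, so the repeat across them is a description.

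Igfbp4 was highest in vessel and stroma cells in 3 of the 4 libraries. It stood at 570 CPM (357 to 863) in fibroblast-like cells of PDGFRa-GFP, 290 in endothelial-like cells of dpi25 and 328 in mural-like cells of dpi35. At dpi35, vessel and stroma cells held 44.1% of its 2254 UMIs and myeloid cells 34.1%, the latter at 31.2 CPM (29.1 to 33.5). Tumour clusters had 12.8 to 31.1 CPM at dpi25.

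In the C1 cells, levels are in TPM, a scale of transcript shares that corrects for transcript length, and each set is described by its mean over cells and by the cells at 10 TPM or more. Igf1 and Igfbp7 were near 0 in all 4 sets: Igf1 reached at most 0.276 TPM in a cell, and Igfbp7 was seen in 1 hGFAP-GFP cell, at 30.0 TPM. A count of 0 among 60 cells allows a share of up to 5.00% when the limit is set at 3 cells of the total. Igf2 at 10 TPM or more was seen in 3 cells of PDGFRa-GFP and in none of hGFAP-GFP. At P6 these cells had 8547 and 4339 TPM and at P3 the cell had 2834 TPM, and the 3 were the cells classed as fibroblast by their markers.

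For PDGFRa-GFP C1 cells, P6 against P3, 7 of the 9 genes had a mean of at least 1 TPM in either set. Of these, 3 were past 2-fold higher and 1 lower, while 33.9% of 15737 genes were past it higher and 20.5% lower. Cells of P6 had a median of 5591 detected genes and those of P3 4124.5. The part of this in the ratios was not tested. Ratios here are log2 of (mean + 1) over (mean + 1), which understates changes of low genes. Igf1r was lower at P6, with 17.5 against 43.4 TPM, a log2 ratio of -1.26, or -0.83 without the highest P3 cell. Cells at 10 TPM or more were 33.96% (21.5 to 48.3) at P6 and 41.7% (29.1 to 55.1) at P3. Igfbp2 was higher at P6, with 88.2 against 13.1 TPM (2.66). Both fibroblast-classed cells of P6 had Igfbp2, at a mean of 1180 TPM, and the 1 radial glia-classed cell of P6 had 1000. OPC-classed cells had a mean of 37.1 TPM at P6 and 13.3 at P3. Igf2 gave 2.34, but 0.81 without the highest cell of P6 and 7.93 without the one Igf2 cell of P3. Igfbp3 gave 1.10, from 3 cells at 10 TPM or more in each set, and came to 0.01 without the highest cell of P6 and to 3.13 without that of P3. All 6 of these Igfbp3 cells were classed as OPC. Igf2r (0.36), Igfbp4 (0.67) and Igfbp5 (-0.31) were within 2-fold with all cells. Igfbp4 came to -0.46 without the highest P6 cell and 2.80 without the highest P3 cell, and Igfbp5 to 0.24 without the highest P3 cell. The median was 0.67 over the 7 and 0.32 over all genes.

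For hGFAP-GFP C1 cells, P4/P6 against P3, 6 of 9 genes passed the minimum. Of these, 1 was past 2-fold higher and 2 lower, against 25.7% and 26.1% of 12564 genes. The median of detected genes per cell was 3405 at P4/P6 and 3768 at P3. Igf1r was higher, with 41.4 against 15.7 TPM (1.34, or 0.78 without the highest later cell), and 45.9% (33.1 to 59.2) against 28.6% (16.6 to 43.3) of cells were at 10 TPM or more. Igfbp5 was lower, with 4.70 against 49.6 TPM (-3.15), and 16.4% (8.15 to 28.1) against 32.7% (19.9 to 47.5) of cells. Igfbp3 was lower (-3.16), but in 1 and 4 cells. Igfbp2 hardly moved in its mean, with 78.4 against 91.4 TPM, and a single cell at 2604 TPM, classed as radial glia, gave 54.4% of the later sum; cells at 10 TPM or more were 11.5% against 32.7%. Igf2r (-0.89) and Igfbp4 (-0.91) were within 2-fold, the latter at -4.52 without the highest later cell and 0.34 without the highest earlier one. Igfbp2 came to -1.31 and 0.05 in the same way. The median was -0.90 over the 6 and 0.02 over all genes.

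The class makeup of the C1 sets moved with these values. Cells classed as neuron made up 9.43% at P6 and 35.0% at P3 in PDGFRa-GFP, and 37.7% at P4/P6 and 6.12% at P3 in hGFAP-GFP. Neuron-classed cells had mean Igf1r levels of 85.8 TPM at P3 in PDGFRa-GFP, against 17.96 in OPC-classed cells, but the highest neuron-classed cell had 728 TPM and the medians were 4.75 and 5.17. At P6 the means were 44.2 in 5 neuron-classed and 6.77 in 28 OPC-classed cells. The 6 committed oligodendrocyte-classed cells of P6 had a mean of 53.9, with a median of 1.55 and a highest cell of 313 TPM. In hGFAP-GFP, neuron-classed cells had 49.0 at P4/P6, against 2.23 in astrocyte-classed cells, while at P3 the 3 neuron-classed cells had 27.7 and the 3 OPC-classed cells 63.1. Astrocyte-classed cells were 36.7% at P3 and 9.84% at P4/P6 in hGFAP-GFP, and 11 of 18 and 5 of 6 of them had Igfbp2 at 10 TPM or more. Igfbp5 was highest in cycling cells in both P3 sets, at 37.3 and 133 TPM, and at most 1.24 TPM in OPC-classed cells of any set. In the later sets cycling cells were not highest: at P6 they had 26.3 TPM and neuron-classed cells 28.1, and at P4/P6 they had 5.885 and astrocyte-classed cells 15.3. The part of this makeup in the differences between ages was not tested.

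**Figure D5:**
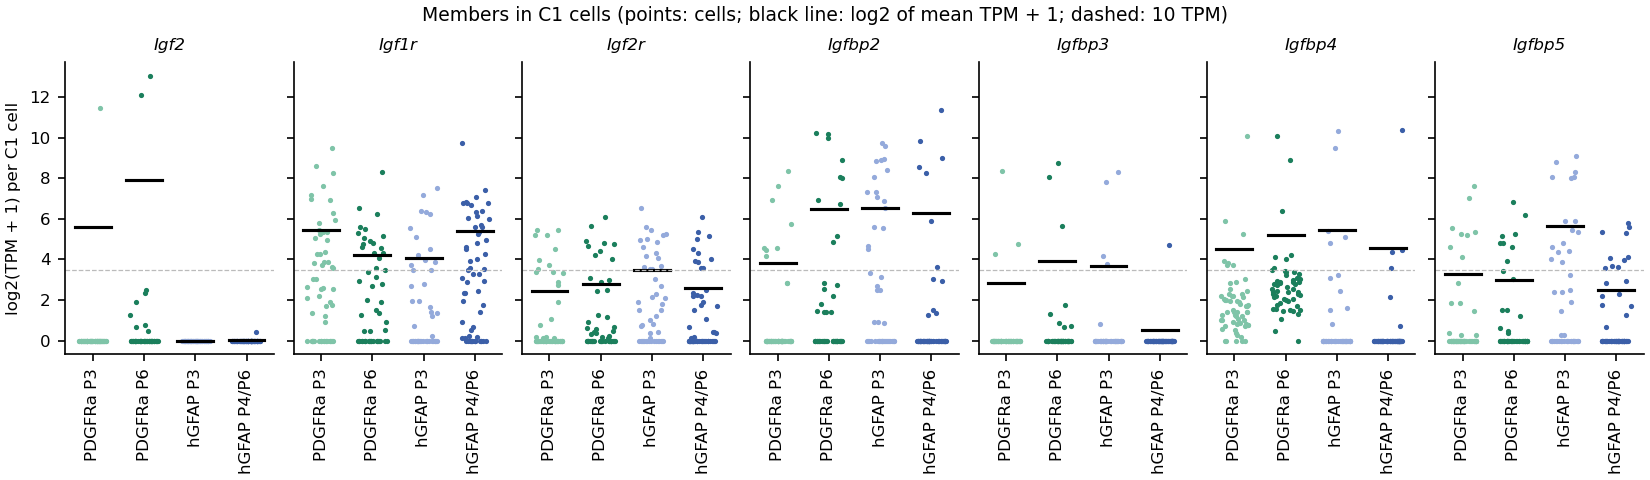
Log2(TPM + 1) of 7 members in C1 cells, by strain and age; each point is a cell, the black line the log2 of the mean TPM + 1, and the dashed line 10 TPM. Igf2 rests on 3 PDGFRa-GFP cells, and in Igfbp3 and Igfbp4 a few cells carry each mean.

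Other genes of the system were taken as a list of 23: further binding proteins, insulin and its receptors, docking proteins, proteases and their inhibitors, and Igf2 mRNA-binding proteins. In PDGFRa-GFP over hGFAP-GFP, 13 were measured with at least 20 UMIs, 1 past 2-fold higher and 2 lower, beside 4.85% and 12.7% of all genes. Htra1, a secreted protease that cuts binding proteins, was at 10.2 against 143 CPM. Stc1, a stanniocalcin of a family that blocks pappalysin proteases, had a log2 ratio of 1.43, and H19, a noncoding RNA beside Igf2, one of -1.03. At dpi25, 5 of 15 were higher and 5 lower than in PDGFRa-GFP, beside 16.2% and 16.6% of all genes, and 4 of 14 higher and 5 lower than in hGFAP-GFP, beside 17.2% and 20.5%. Igfbpl1, a binding protein-like gene, had the lowest ratios, at 8.92 CPM against 409 and 380. Igf2bp1 and Igf2bp3, which bind Igf2 mRNA in the embryo, were lower, Igf2bp3 at 3.64 against 22.2 and 16.2 CPM. Grb14, an adaptor that restrains the insulin receptor, was higher at 48.3 against 5.02 and 5.96, while its relative Grb10 was lower at 2.95 against 39.7 and 24.3. Stc1 and Stc2 were both higher than in either cortex library, Stc2 at 11.2 against 0.980 and 2.62 CPM. Htra1 and H19 were higher than in PDGFRa-GFP (3.07 and 1.76 on the log2 scale), and Pappa, a protease of binding proteins, gave -1.08 from 8 and 12 UMIs, with an interval of -2.58 to 0.33. Igf2bp2 was higher than in hGFAP-GFP (1.18) and the docking protein gene Irs2 lower (-1.61). Insr, the insulin receptor, lay between 16.2 and 17.5 CPM in the 3 libraries. In the C1 sets 6 of 13 were higher and 3 lower at P6 in PDGFRa-GFP, beside 33.9% and 20.5%, and 2 of 13 higher and 3 lower at P4/P6 in hGFAP-GFP, beside 25.7% and 26.1%. Igfbpl1 was lower in the first (-1.73) and higher in the second (3.94), and Ghr, the growth hormone receptor, higher in both (2.80 and 5.45). Also higher at P6 were Grb10 (1.46), Grb14 (1.32), Htra1 (3.07), Igf2bp1 (1.27) and Igf2bp2 (2.56), and lower Irs1 (-1.21) and H19 (-2.30). In hGFAP-GFP, Insr (-1.96), Pappa2 (-1.47) and Igf2bp2 (-4.27) were lower.

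Genes whose pattern was most like each member's were sought by Pearson's r of log2(CPM + 10), among 11621 genes. It covered the 21 marker-named classes of at least 50 cells in the 4 libraries, which held 2105 Igf1 UMIs. Clusters without such a name were left out, among them the Gpnmb-led one of dpi35 with 3300 Igf1 UMIs and the hypoxia-led ones. Smaller classes were left out too, such as the 12 fibroblast-like cells of PDGFRa-GFP. The classes share libraries and depth, so r is a description. Igf1 was most like Slc37a2, Phf11d and Gpr65 (0.96 for each), and Igfbp7 most like Kcna5, Fam43a and Loxl2 (0.95 to 0.98). Igf2 was most like Plac9a, Plac9b and Trpm3 (0.92 to 0.96), and its closest, Plac9a, came to 0.81 without the highest class. Igfbp5 was most like Fzd2, Fbln2 and Fam210b (0.85 to 0.94), Igfbp3 like Cda, Sec61a1 and Col18a1 (0.88 to 0.89) and Igfbp2 like Sdc2, Pomgnt2 and Spats2l (0.85 to 0.89). Igfbp4 was most like Asb4, Pmaip1 and Adcy4 (0.86 for each). The receptors had weaker matches, Igf1r with Rps6ka2, Mprip and Sptan1 (0.82 to 0.84) and Igf2r with Esyt2, Wfs1 and Ext1 (0.81 for each). Among the members, Igfbp4 and Igfbp7 (0.71), Igf2r and Igfbp7 (0.67) and Igf2 and Igfbp2 (0.66) were closest, and Igf1 with any other member gave no r above 0.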

How the data were processed

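The 9 genes, the list of 23 pathway genes and the markers were chosen with earlier results of these data known. The authors deposited 3 Drop-seq tables as a signal, UMI counts scaled to 10000 per cell, from which whole UMI counts were recovered (100% of values whole within 0.1). The dpi35 table deposited by the authors holds raw UMI counts. The C1 tables deposited by the authors hold TPM. The deposited ATAC peak list gives a fold enrichment and the −log10 of p- and q-values per peak. The submitters' processing notes name STAR, Cell Ranger, RSEM, CASAVA, Bowtie2, MACS2 2.12 and HOMER and the mm10 build, without saying which made which value. The C1 PDGFRa-GFP cells and the ATAC samples carry label fields that differ from their titles; titles were followed.

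Cells with at least 200 genes were clustered per library (scanpy 1.11.5, leidenalg 0.10.2; 2000 variable genes without the members and pathway genes, 30 components, 15 neighbours, resolution 1). Clusters took names from markers by a scoring rule settled after the clusters were seen. Scrublet marked 5, 4 and 0 cells in the Drop-seq libraries, under 0.5% and so not usable, and 124 (2.05%) at dpi35; marked cells were kept. A second OPC-like cluster of dpi35, 109 cells of which 84 were marked, with a microglia and macrophage marker sum of 19670 CPM, was not used. Myeloid clusters are those with a marker sum of at least 20000 CPM. Background carried by free RNA was taken as the source cluster's level times the share of that source's markers seen in a cluster. C1 cells were classed by markers at 10 TPM.

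Counts were summed per library or cluster. Intervals are exact Poisson, conditional binomial for ratios and Clopper-Pearson for shares, at 95%. Genes needed at least 20 UMIs in both libraries together, or a mean of 1 TPM in either C1 set, to be counted past 2-fold; C1 ratios used a pseudocount of 1. The rule for naming took all 9 members, the pathway genes past 2-fold and the 3 genes of highest correlation per member; Insr in the droplet libraries was named after its values were seen. Alternatives were TMM scaling (edgeR 4.0.16), another total, equal weight per cell, thinning to 1000 UMIs, fewer clusters, other minimums and folds, other resolutions and other pseudocounts. The counting step was checked on simulated data.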

Additional observations from a re-analysis of the deposited data

Results flagged for a closer look

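Igf1r went in opposite directions between the age sets of C1 cells in the 2 strains. Its log2 ratio was -1.26 in PDGFRa-GFP (P6 over P3) and 1.34 in hGFAP-GFP (P4/P6 over P3). Igfbp3 did so too, at 1.10 and -3.16. The difference between strains was not tested, since each set is 1 sample. Strain here follows the titles, from which the strain field of the PDGFRa-GFP C1 cells differs. Igfbp3 rests on 1 to 4 cells at 10 TPM or more in each set. Igf1r came to -0.83 without the highest P3 cell of PDGFRa-GFP and to 0.78 without the highest later cell of hGFAP-GFP. Without the highest cell of the other age it came to -1.79 and 1.68. Its shares of cells at 10 TPM or more had overlapping intervals in both strains. From P3 to the later set, neuron-classed cells went from 35.0% to 9.43% in PDGFRa-GFP and from 6.12% to 37.7% in hGFAP-GFP. The part of this makeup was not tested.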

How the results depend on the processing

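Of the counts of members past the fold, 57 of 67 alternatives stayed within 1.5 times the value given and 10 did not. In PDGFRa-GFP over hGFAP-GFP, leaving out neuronal, immune, vessel, stromal, ependymal and choroid clusters gave 1 gene higher and 3 lower, and a fold of 1.5 gave 4 and 2. Without those clusters Igf2 in that comparison reversed to -2.09 and Igf1 at dpi25 over hGFAP-GFP to -0.34, with fewer cells by construction. Thinning gave 1 gene lower at dpi25 over hGFAP-GFP, where 8 members passed the minimum. In PDGFRa-GFP C1 cells the mean of log2(TPM + 1) gave 0 genes higher and 0 lower, and a pseudocount of 10 gave 0 lower. In hGFAP-GFP C1 cells a pseudocount of 10 gave 0 higher and a fold of 1.5 gave 4 lower. The cause was not tested. Log2 ratios of droplet members moved in 35 of 131 alternatives, and those of C1 members in 21 of 65; among ratios past 2-fold the sign turned in the 2 named. Ratios within 2-fold also changed sign. In the cortex comparison Igf1 came to -0.18 with equal weight per cell, Igf2r to 1.09 when thinned and Igfbp2 to 0.02 under TMM; Igfbp4 at dpi25 over hGFAP-GFP came to -0.03 when thinned. In C1, Igfbp4 of both strains, Igfbp5 of PDGFRa-GFP and Igfbp2 of hGFAP-GFP did so without 1 cell (-0.46, 0.34, 0.24 and 0.05), and Igfbp5 also in the mean of logs (0.12). CPM of cell classes moved in 20 of 80 alternatives. At resolution 0.5 the highest class of hGFAP-GFP changed from astrocyte-like to ependymal-like for Igf2 and Igfbp5, and the other way for Igf2r. With equal weight per cell, the highest class of PDGFRa-GFP became fibroblast-like for Igf1r, microglia-like for Igf2r and choroid plexus-like for Igfbp2. Leaving out the highest cell, or the one hGFAP-GFP cell with most Igf2, was chosen after seeing the data. No paired analysis was possible because each droplet group is 1 library, C1 cells carry no animal, and no result comes from a test. Fewer than 20 UMIs, as for Igf1 in hGFAP-GFP and Igfbp7 in both cortex libraries, leave ratios with wide intervals.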
